A study of Homo sapiens with 6 samples.

Results

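The genes described here are 52 human genes of ribosome biogenesis and the nucleolus, measured in HepG2 cells, a line labelled as hepatocellular carcinoma. The genes were listed by symbol: nucleolar processing factors, box C/D and box H/ACA proteins, and assembly factors of the large and small ribosomal subunits. All 52 were found by Ensembl identifier among the 60240 genes of the deposited table, and all 52 passed the filter on low values that left 18723 genes for testing. GDF11 is a secreted ligand related to activins and myostatin. Treated cultures received 100 ng/ml of it, as recombinant protein, for 24 h; the labels give the others only as controls. Total RNA of 3 control and 3 treated samples, described as biological replicates, was sequenced. All 6 libraries come from 1 cell line, and no time point other than 24 h or dose other than 100 ng/ml was measured.

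Ribosomes are built in the nucleolus. RNA polymerase I makes a long precursor rRNA, small nucleolar RNAs with their proteins modify it and guide its folding, and a sequence of assembly factors, helicases and GTPases cuts it and joins it to ribosomal proteins. Small subunit precursors form around the U3 small nucleolar ribonucleoprotein, whereas large subunit precursors mature through a separate series of particles. Growing and tumour cells are known for high levels of these factors, many of which are classical targets of the transcription factor MYC.

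Values are log2 levels after the authors' variance stabilisation, and 5.52 is the lowest, that of a gene with no reads. Differences are GDF11 minus control. A gene was called when its Benjamini-Hochberg adjusted p over all 18723 genes was under 0.05 in limma. Back-transformation put the library sizes at 47945600 to 53374000 reads. Integrity numbers of the RNA were 9.6 to 9.9 in controls and 9.4 to 9.6 with GDF11. Control replicate 3 was unlike the other controls: on the first principal component of the 1000 most variable genes it lay at -21.6 against -29.8 and -31.7, with GDF11 libraries at 27.3 to 28.6. Counts of calls are given with and without it. Among hepatocyte markers ALB and AFP were high in all libraries (15.12 to 17.96). Of 4 blood cell markers, 3 (PTPRC, CD3E and HBB) were at the lowest value throughout, and the summed reads of the 4, all from CD68, were 2246 to 3412 in controls and 2492 to 2997 with GDF11. Endothelial markers summed to 53.1 to 97.3 reads in controls and 13.2 to 32.9 with GDF11, with 1 of 4 (TEK) at the lowest value in all libraries. Fibroblast markers, nearly all PDGFRB, summed to 752 to 1474 and 1920 to 2555 reads, with none of the 5 at the lowest value in every library. The part of other cell types in the results below was not tested.

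Many ribosome biogenesis genes had lower normalised RNA levels in GDF11-treated cultures. Of the 52 genes, 19 fell, 0 rose and 33 were not called in limma, where 10.8% of all tested genes were called lower and 11.7% higher. At an unadjusted p under 0.05, 32 of the 52 were lower and 0 higher, against 18.7% and 18.5% of all tested genes. The difference was below 0 for each of the 52 genes, against 49.4% of all tested genes. Its median was -0.46, against 0.0056 over all tested genes, and it ranged from -0.98 for FBL to -0.042 for GAR1. For 35 of the 52 all GDF11 values lay under all control values, where 19.6% of tested genes did so. The 52 genes were chosen with earlier results of these data known, so these shares describe them and do not test them. The 52 genes together took 0.593% to 0.731% of normalised reads in control libraries and 0.501% to 0.544% in GDF11 libraries. In such whole-culture RNA, fewer cells making these transcripts and less RNA per cell cannot be told apart. Values are relative to the other RNA of each library, so a change in total RNA per cell was not measured.

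**Figure D1:**
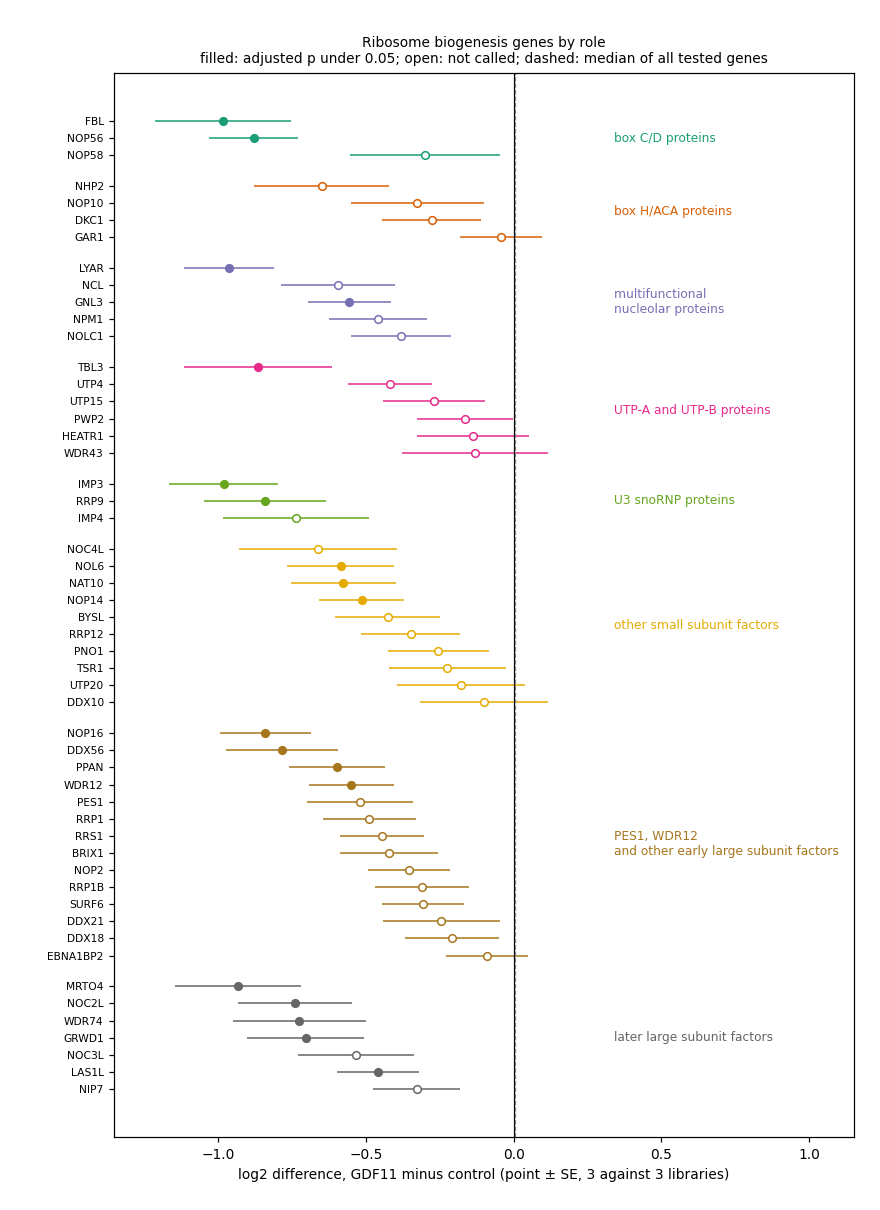
Log2 difference (GDF11 minus control, horizontal axis) with its standard error for each of the 52 genes, grouped by role; filled points were called at an adjusted p under 0.05. Every point lies left of 0, between -0.98 and -0.042, and filled points occur in 7 of the 8 roles.

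Calls were spread over the roles. Fallen genes made up 2 of 3 box C/D proteins, 0 of 4 box H/ACA proteins, 2 of 5 multifunctional nucleolar proteins, 1 of 6 UTP-A and UTP-B proteins, 2 of 3 U3 proteins and 3 of 10 other small subunit factors. They also made up 4 of 14 early and 5 of 7 later large subunit factors. Of all tested genes 10.8% fell. Without control replicate 3 the counts were 2, 2, 4, 2, 3, 6, 8 and 7 in the same order of roles, and 21.3% of all tested genes were called lower. Whether the roles differ from one another was not tested.

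Box C/D proteins carry the small nucleolar RNAs that guide ribose methylation of rRNA. NOP56, a core protein of these particles (ENSG00000101361.17, chromosome 20, 2652632 to 2658393 in RefSeq GRCh38.p14), had values of 14.53, 14.52 and 14.27 in controls and 13.55, 13.58 and 13.54 with GDF11. The GDF11 libraries lay close together and well under every control. NOP56 fell by 0.88 ± 0.15 (SE, adjusted p = 0.00368), and GDF11 reads were 54.0% of control reads. FBL encodes fibrillarin, the methyltransferase itself (ENSG00000105202.9, chromosome 19, 39834458 to 39846379). FBL stood at 14.32, 14.43 and 13.57 in controls and 13.09, 13.24 and 13.05 with GDF11, so that control replicate 3 lay between the other controls and the treated libraries. It fell by 0.98 ± 0.23 (adjusted p = 0.0160). NOP58, the partner of NOP56, had values of 11.24, 10.59 and 11.44 in controls and 10.77, 10.46 and 11.15 with GDF11. These groups overlapped, and NOP58 was not called (-0.30 ± 0.25, adjusted p = 0.424). Its difference depended on single libraries: it was -0.13 when control replicate 3 or GDF11 replicate 2 was omitted, and -0.55 when control replicate 2 was.

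Box H/ACA proteins serve the particles that convert uridine to pseudouridine, and the same proteins bind telomerase RNA. None of the 4 was called, and 1 was lower at an unadjusted p under 0.05. DKC1, which encodes the pseudouridine synthase dyskerin (ENSG00000130826.18, chromosome X, 154762864 to 154777689), had values of 12.32, 12.38 and 12.79 in controls and 12.18, 12.17 and 12.31 with GDF11. Its groups did not overlap, but the highest GDF11 value was only just under the lowest control, and the difference was -0.28 ± 0.17 (adjusted p = 0.262), or -0.13 without control replicate 3. NHP2, a core protein of these particles, stood at 13.40, 13.44 and 12.62 in controls and 12.56, 12.61 and 12.35 with GDF11 (-0.65 ± 0.23, adjusted p = 0.0731). NOP10, the smallest core protein, and GAR1, which completes the particle, differed by -0.33 ± 0.23 and -0.042 ± 0.14. NOP10 was -0.58 and called lower without control replicate 3 (adjusted p = 0.0084), and -0.17 without control replicate 1. For GAR1 the sign turned without control replicate 3 (0.0073).

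Among the multifunctional nucleolar proteins, LYAR had the lowest adjusted p of the 52 genes. LYAR encodes a zinc finger protein of rRNA synthesis and processing (ENSG00000145220.14, chromosome 4, 4267701 to 4290154). Its values were 10.61, 10.46 and 10.78 in controls and 9.60, 9.57 and 9.79 with GDF11, with no treated library near a control. LYAR fell by 0.96 ± 0.15 (adjusted p = 0.00256), to 48.3% of control reads. GNL3, which encodes the GTP-binding protein nucleostemin, fell from 12.26, 12.05 and 12.12 to 11.53, 11.56 and 11.67 (-0.55 ± 0.14, adjusted p = 0.0223). Its 6 values formed 2 groups with a gap larger than the spread within either.

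NCL and NPM1 encode nucleolin and nucleophosmin, abundant nucleolar proteins that bind rRNA and histones. NCL (ENSG00000115053.16, chromosome 2, 231453531 to 231464484) stood at 15.28, 15.10 and 15.57 in controls and 14.59, 14.59 and 15.00 with GDF11. NPM1 (ENSG00000181163.13, chromosome 5, 171387116 to 171410900) stood at 16.48, 16.21 and 16.30 in controls and 15.91, 15.93 and 15.78 with GDF11. In both genes the groups did not overlap, yet neither was called: the difference was -0.59 ± 0.19 for NCL (adjusted p = 0.0567) and -0.46 ± 0.16 for NPM1 (adjusted p = 0.0768). The NPM1 value is uncertain, since 49 NPM1 pseudogenes are in the table, 4 of them tested, and can share its reads; under quantile normalization its difference was 0.046. NOLC1, a chaperone of small nucleolar ribonucleoproteins, differed by -0.38 ± 0.17 (adjusted p = 0.135).

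**Figure D2:**
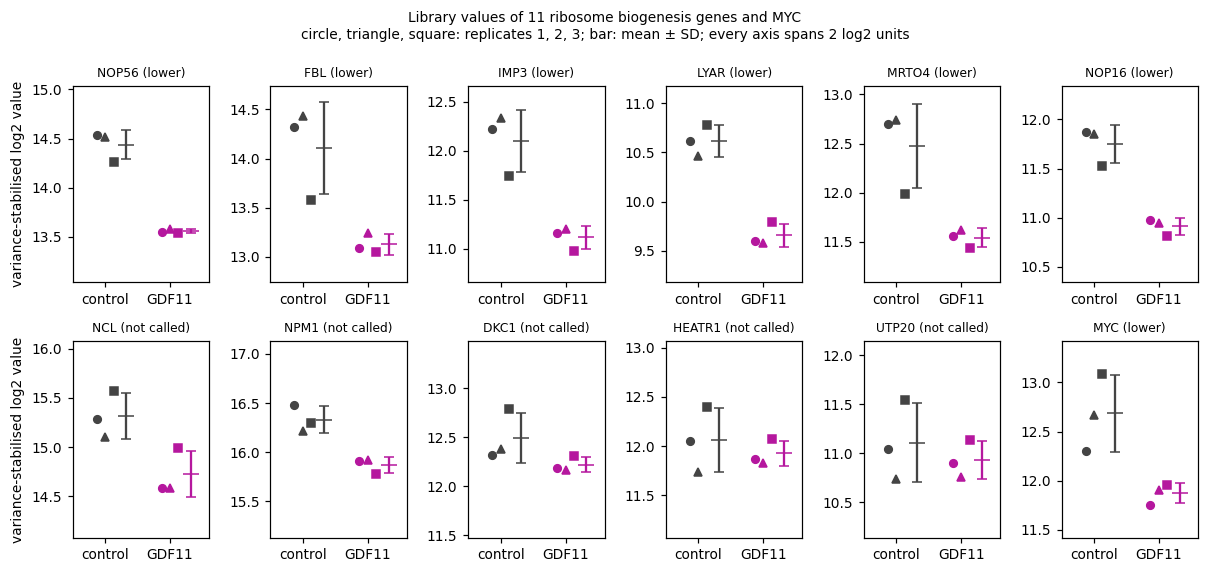
Variance-stabilised log2 values of 11 ribosome biogenesis genes and MYC in each library, with group means ± SD (n = 3 each); each vertical axis spans 2 log2 units. The groups overlap in HEATR1 and UTP20 only. Control replicate 3 lies under the other controls in NOP56, FBL, IMP3, MRTO4 and NOP16, and between them in NPM1. It lies above them in LYAR, NCL, DKC1, HEATR1, UTP20 and MYC.

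The U3 particle guides the first cuts of the precursor rRNA. IMP3, which joins U3 RNA to the precursor (ENSG00000177971.8, chromosome 15, 75639093 to 75640224), had values of 12.22, 12.34 and 11.74 in controls and 11.17, 11.21 and 10.98 with GDF11. It fell by 0.98 ± 0.19 (adjusted p = 0.00621), to 49.0% of control reads. RRP9, a U3-specific protein, fell from 11.73, 11.70 and 11.04 to 10.63, 10.80 and 10.52 (-0.84 ± 0.21, adjusted p = 0.0195). In RRP9 as in IMP3, control replicate 3 was the lowest control and still above each treated library. IMP4, the partner of IMP3, had values of 12.97, 13.01 and 12.10 in controls and 11.99, 12.10 and 11.78 with GDF11, and control replicate 3 lay level with the highest treated library. IMP4 was not called (-0.74 ± 0.25, adjusted p = 0.0632).

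The UTP-A and UTP-B complexes bind the nascent precursor before U3. TBL3, a UTP-B member, fell from 12.71, 12.75 and 11.79 to 11.60, 11.61 and 11.45 (-0.87 ± 0.25, adjusted p = 0.0375), and control replicate 3 lay nearer to the treated libraries than to the other controls. HEATR1, the largest UTP-A protein, stood at 12.05, 11.74 and 12.39 in controls and 11.87, 11.83 and 12.07 with GDF11. Its groups overlapped, and the difference of -0.14 ± 0.19 (adjusted p = 0.633) turned to 0.029 without control replicate 3. The remaining UTP-A proteins UTP4, UTP15 and WDR43 and the UTP-B protein PWP2 had differences from -0.42 to -0.13, and none was called.

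Of 10 other small subunit factors, 3 fell. NOP14, an early assembly factor, went from 12.18, 12.28 and 12.48 to 11.80, 11.83 and 11.76 (-0.51 ± 0.14, adjusted p = 0.0331). NAT10, the acetyltransferase of small subunit rRNA, went from 11.98, 12.54 and 12.38 to 11.83, 11.61 and 11.72 (-0.58 ± 0.18, adjusted p = 0.0467). NOL6, a UTP-C protein, went from 12.002, 11.83 and 11.45 to 11.21, 11.32 and 11.003 (-0.58 ± 0.18, adjusted p = 0.0473). The gap between groups was narrow in NAT10 and NOL6 and wider in NOP14, where control replicate 3 was the highest library. An antisense gene, NOP14-AS1, overlaps NOP14 and was not called (0.059 ± 0.16), and no source used here says whether reads were counted by strand. The 7 uncalled genes of this role had differences from -0.66 for NOC4L to -0.10 for DDX10, with the export factor RRP12, BYSL, PNO1, TSR1 and UTP20 between.

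Early large subunit factors included 4 genes that fell. NOP16 (ENSG00000048162.21, chromosome 5, 176383946 to 176388598) had values of 11.88, 11.85 and 11.52 in controls and 10.97, 10.95 and 10.81 with GDF11, a fall of 0.84 ± 0.15 (adjusted p = 0.00541). DDX56, a DEAD-box RNA helicase gene, went from 12.78, 12.86 and 12.34 to 12.07, 11.92 and 11.64 (-0.78 ± 0.19, adjusted p = 0.0186). Both genes had all treated libraries under the lowest control. WDR12 is a subunit of the PeBoW complex, which is needed for large subunit rRNA maturation. WDR12 went from 12.03, 11.78 and 11.99 to 11.29, 11.44 and 11.42 (-0.55 ± 0.14, adjusted p = 0.0255). PPAN went from 11.39, 11.26 and 10.92 to 10.60, 10.67 and 10.52 (-0.60 ± 0.16, adjusted p = 0.0303), and its reads can be shared with the readthrough gene PPAN-P2RY11, which was not called (-0.46 ± 0.15, adjusted p = 0.0586).

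PES1, another PeBoW subunit, stood at 13.26, 13.33 and 12.77 in controls and 12.61, 12.66 and 12.53 with GDF11. The groups did not overlap and the gene was not called (-0.52 ± 0.18, adjusted p = 0.0681). The other 9 early factors were not called either: RRP1, RRS1, BRIX1, the rRNA methyltransferase gene NOP2, RRP1B, SURF6, the helicase genes DDX21 and DDX18, and EBNA1BP2 had differences from -0.49 to -0.090, RRP1 having the lowest and EBNA1BP2 the highest.

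Later large subunit factors had calls for 5 of 7 genes. MRTO4, which holds the place of a stalk protein on the precursor, went from 12.70, 12.74 and 11.99 to 11.56, 11.62 and 11.44 (-0.93 ± 0.21, adjusted p = 0.0145). NOC2L went from 13.41, 13.49 and 12.88 to 12.57, 12.62 and 12.38 (-0.74 ± 0.19, adjusted p = 0.0247). GRWD1, a chaperone of a ribosomal protein, went from 12.45, 12.43 and 11.81 to 11.56, 11.61 and 11.41 (-0.70 ± 0.20, adjusted p = 0.0334). These genes shared 1 shape, in which controls 1 and 2 were close together, control 3 lower and the treated libraries lowest. WDR74 went from 11.88, 11.93 and 11.14 to 11.02, 11.01 and 10.74 (-0.72 ± 0.22, adjusted p = 0.0474). LAS1L, for the endonuclease that cuts an internal spacer of the precursor, went from 11.23, 11.43 and 11.21 to 10.88, 10.81 and 10.80 (-0.46 ± 0.14, adjusted p = 0.0445). NOC3L and NIP7 had differences of -0.53 ± 0.20 and -0.33 ± 0.15 and were not called, although in all 7 genes of this role the groups did not overlap.

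The controls differed among themselves over these genes in a patterned way. Relative to each gene's mean over the controls, the median of the 52 genes was 0.11, 0.042 and -0.056 in controls 1 to 3 and -0.45, -0.47 and -0.49 in treated libraries 1 to 3. Control replicate 3 was the lowest control for 26 genes, the highest for 19 and in between for 7. Over all 18723 tested genes these counts were 7340, 7418 and 3965, so such a split was not particular to the 52. In the 26 genes it lay a median of 0.51 under the mean of the other controls (-0.51), and in the 19 genes a median of 0.40 above it. The GDF11 mean was under control replicate 3 for 51 of the 52 genes, NOP10 being the exception. All 3 GDF11 libraries were under control replicate 3 for 46 genes. The shares of all tested genes that did the same are not given here, so these counts are a description only.

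**Figure D3:**
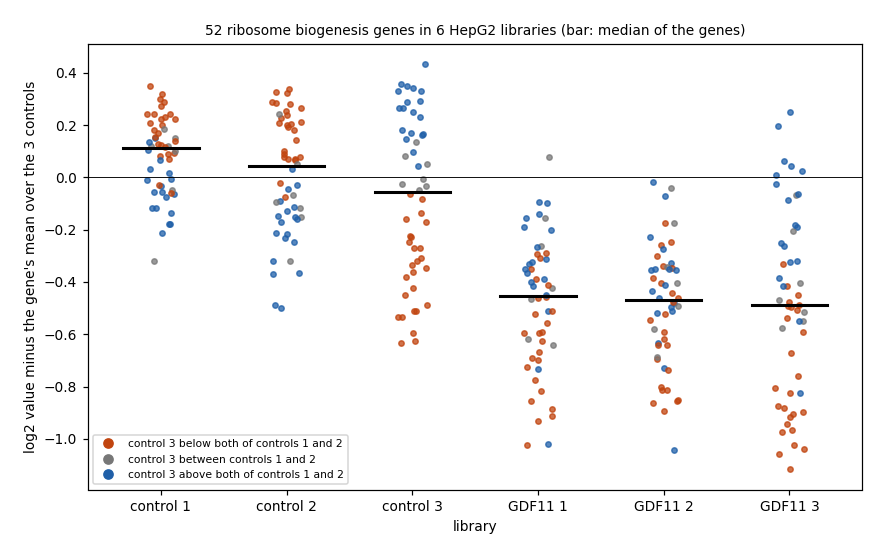
Value of each of the 52 genes in each library, as log2 minus the gene's mean over the controls; points are genes, coloured by where control replicate 3 lies, and bars are medians over genes. Medians are 0.11, 0.042 and -0.056 in the controls and -0.45 to -0.49 with GDF11, and control replicate 3 holds separate upper and lower sets of genes.

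These sets differed in transcript composition. Genes with control replicate 3 under both other controls had a median GC content of 56.9% and a median transcript length of 2122 bases; those with it above both had 43.1% and 3556 bases. Across the 52 genes, the difference of control replicate 3 from the other controls and GC content had a Pearson r of -0.71 and a Spearman rho of -0.72; across 18451 tested genes these were -0.43 and -0.44. Such correlations are across genes that share libraries and are given as a description. The difference of the GDF11 mean from control replicates 1 and 2 also went with GC content among the 52 (Pearson r -0.64, Spearman rho -0.64). The difference from control replicate 3 alone had the opposite sign (0.38 and 0.42). Across 18451 tested genes these were -0.19 and -0.23, and 0.11 and 0.094. The 3 differences share libraries, so their correlations with GC content are not independent of one another. Calls were unevenly spread over these sets: 14 of the 26 genes with a low control replicate 3 fell, against 2 of the 19 with a high one. Of all tested genes 10.8% fell, and shares among all tested genes by position of control replicate 3 are not given here. Control replicate 3 defines the sets and also enters the tested difference, so position and call are not independent. When trends of the values with GC content and transcript length were taken out of each library, 34 of the 52 genes were called lower and 0 higher, with a median difference of -0.44. The same correction called 16.7% of all tested genes lower and 13.9% higher.

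**Figure D4:**
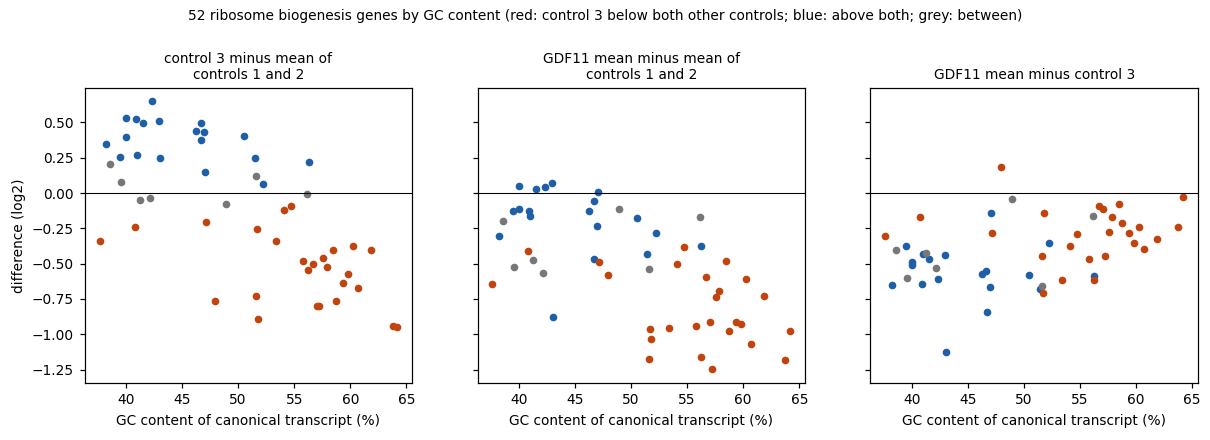
Each point is 1 of the 52 genes, by GC content of its canonical transcript (percent, horizontal) and by a log2 difference (vertical): control replicate 3 minus the other controls, GDF11 minus those controls, and GDF11 minus control replicate 3. The first falls with GC content (Pearson r -0.71), and in the last 51 of 52 points lie under 0.

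Leaving out control replicate 3 raised the number of fallen genes from 19 to 34, with 0 risen, against a background of 21.3% lower and 19.5% higher. All 19 calls were kept, and the largest differences became -1.25 ± 0.12 for FBL, -1.18 ± 0.11 for TBL3, -1.18 ± 0.12 for MRTO4 and -1.16 ± 0.12 for IMP3. NHP2 (-0.92), IMP4 (-1.03), NOC4L (-0.98), PES1 (-0.69), NCL (-0.47) and NPM1 (-0.48) were among those newly called, at adjusted p from 0.00052 to 0.042. RRP1 (-0.61), BYSL (-0.59), NOP10 (-0.58), UTP4 (-0.49), RRP12 (-0.48), NIP7 (-0.41), NOC3L (-0.65), NOP2 (-0.38) and RRS1 (-0.37) were the others. In this comparison 5 genes (GAR1, HEATR1, UTP20, DDX10 and WDR43) had differences of 0.0073 to 0.070 and none of them was called. Leaving out any 1 of the other libraries instead left 4 to 7 fallen genes: 5 without control replicate 1, 6 without control replicate 2, and 5, 7 and 4 without GDF11 replicates 1, 2 and 3. Of all tested genes, 5.84%, 6.35%, 5.35%, 6.11% and 5.1% were called lower in these fits, in the same order. NOP56, LYAR, IMP3 and NOP16 kept their call in all 6 of these fits, and the other 15 lost it in 4 or 5 of them. For 17 of the 33 uncalled genes, and for none of the 19 called, the difference moved by over 1.5 times when some 1 library was left out. That measure is relative to the full difference, so small differences pass it more easily. Called genes had larger differences to begin with, and no greater stability of theirs can be read from it.

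RNA integrity was lower in treated libraries, and a fit that included the integrity number called 6 of the 52 genes lower, against 3.85% of all tested genes. These were LYAR (-1.24, adjusted p = 0.00469), NCL (-1.05, adjusted p = 0.0106), NOLC1 (-0.74, adjusted p = 0.0335), NOP56 (-0.71, adjusted p = 0.0359), BRIX1 (-0.76, adjusted p = 0.0385) and WDR12 (-0.70, adjusted p = 0.0418). Only 3 of the 19 calls (LYAR, NOP56 and WDR12) were kept, while the median of the 52 differences was -0.41 and 48 of them stayed under 0. The integrity numbers of the groups meet only at 9.6.

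Further genes of ribosome production were taken from lists. Of 79 other ribosome biogenesis genes tested, 12 (15.2%) fell, 0 rose and 67 were not called, with a median difference of -0.22. The share that fell is near the 10.8% of all tested genes. At an unadjusted p under 0.05, 22 (27.8%) were lower and 4 higher, against 18.7% and 18.5% of all tested genes. Without control replicate 3 the calls were 26 lower and 6 higher, against 21.3% and 19.5% of all tested genes. NLE1, for a large subunit assembly factor, stood at 12.58, 12.63 and 11.75 in controls and 11.07, 11.40 and 10.88 with GDF11 (-1.20 ± 0.25, adjusted p = 0.01004). NOL11 (-0.76 ± 0.16), the endonuclease gene NOB1 (-0.73 ± 0.17) and PELP1 (-0.81 ± 0.20) also fell. Unlike the 52 genes, 23 of these 79 had a difference above 0. FCF1 (0.64 ± 0.21, adjusted p = 0.0593) and UTP3 (0.55 ± 0.18, adjusted p = 0.0562) had the highest, chosen after their values were seen; both were called higher without control replicate 3 (0.85 and 0.70). BOP1, the remaining PeBoW subunit, had no match in the name table and is not analysed here.

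Of 12 small nucleolar ribonucleoprotein assembly genes 2 (16.7%) fell, a share near that of all tested genes, and 0 rose, with a median of -0.40 (unadjusted, 7 lower and 0 higher). At the unadjusted p, 18.7% of all tested genes were lower and 18.5% higher. Without control replicate 3, 5 were called lower and 1 higher, against 21.3% and 19.5% of all tested genes. The 2 that fell with all libraries were RUVBL2, an assembly ATPase gene (-0.90 ± 0.26), and SNU13, which binds both box C/D RNAs and a spliceosomal RNA (-0.70 ± 0.22). The uncalled genes of lowest p were RUVBL1 (-0.46 ± 0.16) and PIH1D1 (-0.68 ± 0.24), both called lower without control replicate 3 (-0.59 and -0.98). The RNA exosome trims precursor rRNA ends, and 5 of its 14 genes (35.7%) fell while 0 rose, with a median of -0.39. Of all tested genes 10.8% fell. At an unadjusted p under 0.05, 7 of the 14 were lower and 1 higher, against 18.7% and 18.5% of all tested genes. Without control replicate 3, 8 were called lower and 1 higher, against 21.3% and 19.5%. With any 1 of the other libraries left out instead, only 5.1% to 6.35% of all tested genes were called lower. Counts for the assembly and exosome genes in those fits are not given here. EXOSC8 (-0.70 ± 0.14), EXOSC2 (-0.62 ± 0.15), MPHOSPH6 (-0.58 ± 0.14) and EXOSC5 (-0.80 ± 0.21) were lowest in p.

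Of 7 tested RNA polymerase I factors, which include the termination factor TTF1 beside initiation factors, 0 were called in either direction in limma. Their median was 0.15. Of all tested genes 10.8% were called lower and 11.7% higher. At an unadjusted p under 0.05, 0 of the 7 were lower and 0 higher, against 18.7% and 18.5% of all tested genes. Whether so short a list differs from all tested genes was not tested. UBTF, which opens rDNA for transcription, stood at 11.82, 12.04 and 12.20 in controls and 12.23, 12.15 and 12.23 with GDF11, with overlapping groups (0.18 ± 0.15, adjusted p = 0.420). RRN3 (0.21 ± 0.18), TAF1B (0.17 ± 0.16) and TAF1C (-0.23 ± 0.15) were not called. Without control replicate 3 the calls were 1 higher, RRN3 (0.38, adjusted p = 0.043), and 0 lower, against 19.5% and 21.3% of all tested genes.

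MYC and its partners had calls in both directions for 3 of 9 tested genes. In all, 1 (11.1%) rose and 2 (22.2%) fell, against 11.7% and 10.8% of all tested genes, 6 were not called, and the median was -0.039. MYC stood at 12.30, 12.67 and 13.08 in controls and 11.76, 11.91 and 11.95 with GDF11, a fall of 0.81 ± 0.20 (adjusted p = 0.0213); every treated library was under every control, although the controls were spread widely. Without control replicate 3 the network had 1 gene called higher and 3 lower, against 19.5% and 21.3% of all tested genes. The MYC call ended under quantile normalization (-0.70, adjusted p = 0.0622), without control replicate 2 (-0.82) and without GDF11 replicate 1, 2 or 3 (-0.76, -0.83 and -0.85). MXD1, which encodes a repressor that competes with MYC for MAX, rose by 1.06 ± 0.25 (adjusted p = 0.0161) from 8.40, 8.63 and 9.41 to 9.81, 9.81 and 9.98. MXD3, a related gene, fell by 0.86 ± 0.19 (adjusted p = 0.0133), and MAX itself was not called (0.40 ± 0.16, adjusted p = 0.0975).

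**Figure D5:**
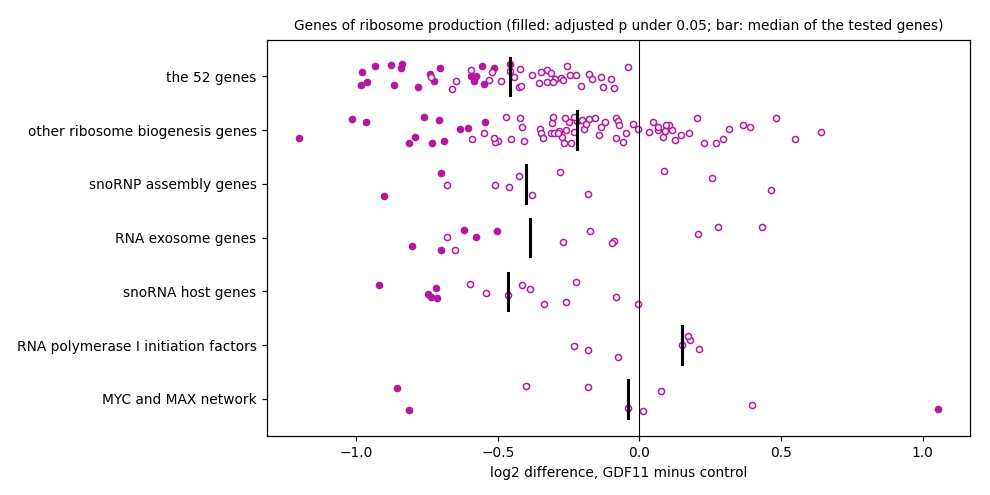
Log2 difference (GDF11 minus control, horizontal axis) of each tested gene of 7 lists; filled points were called and bars are list medians. Medians lie at -0.46 for the 52 genes, -0.22 for other ribosome biogenesis genes, -0.40, -0.39 and -0.46 for assembly, exosome and host genes, 0.15 for polymerase I factors and -0.039 for the MYC network.

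Small nucleolar RNAs are cut from introns of host genes. Of the 52 genes, 8 (15.4%) enclose an annotated small nucleolar RNA gene on their own strand, namely NCL, NOP56, NOP58, DKC1, PPAN, GNL3, WDR43 and TSR1, against 2.24% of tested genes with annotation. Of these 8 hosts, NOP56, GNL3 and PPAN fell. The 24 enclosed RNA genes all have rows in the table, but 13 were at the lowest value in all 6 libraries and 0 passed the filter, so the RNAs themselves were too low to test. These counts are limited by the annotation. It placed 0 such RNA genes in SNHG1, SNHG5, SNHG6, SNHG7, SNHG8, SNHG9 and SNHG29 and 1 in GAS5, which are taken as host genes below. Some RNA names occur more than once within a gene, as SNORD19 does in GNL3. Among 15 tested host genes that are mostly noncoding, 5 (33.3%) fell and 0 rose in limma, with a median of -0.46. Of all tested genes 10.8% fell. At an unadjusted p under 0.05, 11 of the 15 were lower and 0 higher, against 18.7% and 18.5% of all tested genes. Without control replicate 3, 10 were called lower and 0 higher, against 21.3% and 19.5%. Counts for these host genes with another library left out instead are not given here. SNHG1 went from 11.32, 11.34 and 11.30 to 10.50, 10.67 and 10.58 (-0.74 ± 0.13, adjusted p = 0.00525), with control replicate 3 level with the other controls. SNHG16 (-0.72 ± 0.15), SNHG29 (-0.92 ± 0.22), SNHG7 (-0.72 ± 0.17) and GAS5 (-0.75 ± 0.21) also fell.

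Since MYC and its partners bind the E-box CACGTG, a palindrome that reads the same on both strands, the 250 bases before the annotated starts were searched for it. RefSeq (GRCh38.p14) gave 55 such windows for 46 of the 52 genes. The motif was in 9 of the 55 (16.4%), each of another gene, against 6.34% of 35116 windows of all genes. TATAAA, searched on both strands, was in 2 of the 55 (3.64%), against 10.7% of all windows. GC content of the 55 windows ran from 40.4% to 79.2%, and the windows of all genes were not matched to them for it. Whether base composition accounts for the unlike shares of either motif was not tested. The 30 bases before the start are shown for the 4 genes whose motif lies nearest to it, with the E-box in capitals, 5′ to 3′ on the gene's strand.
NAT10 (chr11:34105599-34105628, plus strand): tttaatgcgcttgcgCACGTGctgtctacc
NOP10 (chr15:34343137-34343166, minus strand): caggaaggaaattgacgaaCACGTGacgcg
UTP20 (chr12:101280075-101280104, plus strand): gcgccgttcttttttccgtcCACGTGaccc
UTP4 (chr16:69132619-69132648, plus strand): tgagagcgcgcgcgCACGTGgggccggggc
The motif begins 15, 11, 10 and 16 bases before the start in these genes, and NOP10 holds another copy 170 bases before it. Of the 4, NAT10 fell (-0.58 ± 0.18) and NOP10, UTP20 and UTP4 were not called (-0.33 ± 0.23, -0.18 ± 0.22 and -0.42 ± 0.14). The other 5 genes with the motif were LYAR, which fell, and DDX21, EBNA1BP2, IMP4 and SURF6, which were not called. A match of letters is a description of the sequence and not a measured binding site.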

How the data were processed

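The measurements are variance-stabilised log2 values that the authors deposited as 1 table, covering 60240 Ensembl genes in 3 control and 3 GDF11 libraries. Library preparation kept strand and took 250 ng of RNA, with single reads of 75 bases, per the labels' protocols. Salmon 1.2.1, DESeq2, Trimmomatic and GRCh38 are listed per the submitters' processing notes, but STAR 2.6 with hg19 per the labels' protocols, and no source used here ties either to the table. Raw counts were not used here. Values were back-transformed to normalised reads; of those at 20 reads or fewer, 71.4% to 74.5% per library were whole numbers (tolerance 0.01), so no count test was run. Log2 changes are compressed to 0.914 of their size at a value of 10 and to 0.978 at 12.

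Genes with a mean at least 0.5 above the lowest value (18723) entered a two-sided moderated test over all 6 libraries without covariates (limma 3.58.1 under R 4.3.3, lmFit and trended eBayes), with Benjamini-Hochberg adjustment across all tested genes. The fit was checked on simulated data. Standard errors are limma's moderated ones. Symbols matched 96.9% of identifiers. GC content and length come from GENCODE canonical transcripts (GRCh37 lift), positions and promoter windows from RefSeq GRCh38.p14.

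The 52 genes and the other lists were chosen with earlier results of these data known. Library values are given for called members, for NCL, NPM1, FBL, DKC1, NOP56, NOP58, PES1 and HEATR1 whatever their result, and for some others; of each list, up to 4 genes of lowest p are named, with MYC and UBTF in any case. Alternatives covered filters, normalization, scale, variance prior, library weights, the RNA integrity covariate, a replicate block and each library's omission. A correction for GC content and transcript length, also run with control replicate 3 omitted, was chosen after seeing the data. A further gene list is not reported here.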

Additional observations from a re-analysis of the deposited data

How the results depend on the processing

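The count of 19 ribosome biogenesis genes called lower became 37 with library weights, 6 with the RNA integrity covariate, 31 with the replicate block, 34 with values corrected for GC content and length, and 39 with both that correction and omission of control replicate 3. Leaving out 1 library gave 4 to 34, and none of the settings run called any of the 52 higher. Their median difference, -0.46, stayed within the replicate spread of 0.084 in every setting run. Over all genes, the count called higher was 4473, 1149 and 3657 with weights, the integrity covariate and the correction with control replicate 3 omitted, and 1397 to 3647 when 1 library was left out. The count lower was 4554 with weights, 721 with the covariate, 3306 with the block, 3079 and 4486 with the correction on 6 libraries and with control replicate 3 omitted, and 955 to 3993 with 1 library left out. For other ribosome biogenesis genes called higher, the count was 2 with the stricter filter, 1 without a mean trend, 7 with weights, 4 with the block, 3 and 7 with the correction on 6 and 5 libraries, and 0 to 6 with 1 library left out. For other ribosome biogenesis genes called lower it was 30 with weights, 4 with the covariate, 21 with the block, 28 and 36 with the correction, and 1 to 26 with 1 library left out. Deviations of same-numbered libraries from their group means correlated at -0.088, 0.38 and 0.48 for replicates 1, 2 and 3. For differently numbered libraries the correlations ranged from -0.47 (control 2 with GDF11 3) to 0.25 (control 1 with GDF11 2). Whether the replicate numbers pair the libraries was not tested, and the main fit treated them as unpaired.

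Signs turned, without a call, for NPM1 (0.046) and EBNA1BP2 (0.018) under quantile normalization, for NOP10 (0.23), NOC4L (0.022), RRP12 (0.025) and PWP2 (0.053) with the covariate, for DDX10 (0.0072) with weights, and for GAR1 with the correction (0.0087, and 0.073 without control replicate 3). With 1 library left out, differences ranged from -0.084 to 0.0073 for GAR1, -0.37 to 0.047 for WDR43, -0.36 to 0.039 for UTP20, -0.30 to 0.029 for HEATR1 and -0.28 to 0.070 for DDX10. The cause of these changes was not tested. With 3 libraries a group, LAS1L was the only called gene of the 52 whose difference was smaller than 0.5.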

Other observations

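Of 8 hepatocyte markers 4 (50%) fell and 0 rose, with a median log2 difference (GDF11 minus control) of -0.66. Of all tested genes 10.8% fell. The fallen genes, with limma differences ± SE, were FGB (-1.42 ± 0.16), TTR (-1.52 ± 0.24), ALB (-0.75 ± 0.17) and AFP (-0.56 ± 0.16). At an unadjusted p under 0.05, 6 of the 8 were lower and 0 higher, against 18.7% and 18.5% of all tested genes. Without control replicate 3 the calls were 6 lower and 0 higher, against 21.3% and 19.5% of all tested genes. These falls stand beside those of the ribosome biogenesis genes in the same libraries, and whether the 2 are linked was not tested.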
